A study of Caenorhabditis elegans with 27 samples.

Results

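The glutathione S-transferase genes of Caenorhabditis elegans were taken as all genes whose symbol is gst, gsto or gstk followed by a number. This rule found 49 of the 46934 gene IDs in the table of counts, and it used no measured value. All 49 are protein-coding, and 47 of them had counts enough to test. The others, gst-17 and gst-18, overlap each other and stayed under 0.1 CPM in every library, where CPM is the count per 1 M of a library's normalized total.

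RNA was sequenced from whole worms of the wild-type strain N2, fed Escherichia coli OP50 alone (the OP50 groups) or OP50 with black rice extract (the BRE groups). All groups began as synchronized L4 larvae kept at 20 °C on solid medium, and about 1000 worms went into a sample. The OP50 groups were taken at days 1, 6, 11, 15 and 17 and the BRE groups at days 6, 11, 15 and 17. Each of the 9 groups had 3 libraries, described in the labels as biological replicates, with nothing said of separate cultures. The labels list extract at 0, 0.42, 1.04 and 1.67 mg/mL without saying which of these the sequenced BRE worms received. Because whole animals were used, fewer cells of a type and less RNA per cell cannot be told apart.

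Glutathione S-transferases join the tripeptide glutathione to reactive, electrophilic compounds, among them products of lipid peroxidation, so that these can be exported and broken down. In nematodes the family is expanded, and most numbered members resemble the sigma class, which in vertebrates includes a prostaglandin D synthase. The omega members (gsto) act more as thiol transferases, the kappa members (gstk) belong to mitochondria and peroxisomes, and the zeta-like members take part in tyrosine breakdown. Several members are induced through SKN-1, the worm counterpart of Nrf2, and a gst-4 reporter is the usual readout of that pathway.

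In the WBcel235 annotation, to which the gene IDs were matched, 26 of the 49 genes lie on chromosome II, 9 on V, 5 on IV, 4 on III, 3 on X and 2 on I. Neighbours less than 10 kb apart form 4 runs. The first, on chromosome II from 4879891 to 4893573, holds gst-6, gst-7, gst-8 and gst-9. The second, also on II from 13608154 to 13630887, holds 9 members from gst-20 to gst-18. The third, on II from 15163817 to 15185389, holds another 9, from gst-26 to gst-35. The last, on IV from 10139380 to 10143099, holds gst-3, gst-2 and gst-4. The remaining 24 members lie apart. Exons of 12 members overlap another gene, 9 of them on the opposite strand, and no source used here says whether counting was by strand.

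gst-1 held the largest share of the members' counts in every group. Counted per kilobase of exon, its mean over the 27 libraries was 296.2 CPM per kb, against 91.6 for gst-7, 20.1 for gstk-1, 17.8 for gst-24, 17.6 for gst-5 and 14.9 for gst-43. gst-1 is regarded as a pi-class homologue. This gene made up between 46.6% (OP50 day 1) and 55.4% (OP50 day 11) of the members' summed CPM as group means. Among the 49 members, 7 had a mean over 10 CPM, 19 lay between 1 and 10 CPM and 23 were under 1 CPM. The summed CPM of the members was 513.5 ± 50.5 (SD, n = 3) at OP50 day 1, 350.1 ± 27.7 at OP50 day 15 and 425 ± 77.2 at OP50 day 17.

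Between 101.61 and 164.34 M counts were deposited per library. The 4 libraries with the most sperm transcript (OP50 day 11 replicate 1, OP50 day 15 replicate 3, OP50 day 17 replicate 1 and BRE day 11 replicate 1) had sums of 31.7 to 93.5 CPM over 37 sperm genes, and 4 others, numbered 3 at days 6 and 17, stood apart in gst-21 and gst-35. Counts of calls without each set are given beside the first result below. Summed markers of intestine, a main site of detoxification, moved with age: 10 of 11 listed genes were in the table, none was at 0 in all libraries, and their sum was between 4180 and 4854 CPM at OP50 day 1 and between 656.7 and 915.4 CPM at OP50 day 17. Of these 10 genes, 6 fell and 1 rose between these days. All 10 muscle markers fell (sums of 4777 to 6710 CPM and 1087 to 1479 CPM). Of 9 hypodermis markers 3 fell and 0 rose (sums of 1839 to 2111 CPM and 230.0 to 374.8 CPM), with a median log2 difference of -0.105. For neuron and embryo markers the sums of the 2 days overlapped. Of 10 neuron markers 4 fell and 1 rose (sums of 358.4 to 448.9 CPM and 400.3 to 465.5 CPM). Of 8 embryo markers tested 2 fell and 1 rose (sums over 9 of 247.3 to 288.8 CPM and 173.7 to 324.2 CPM). Of 10 germ line and oocyte markers 6 fell and 1 rose, and their sum was lower at day 17 without overlap (12730 to 14320 CPM and 8112 to 12630 CPM). Of all genes 24.8% fell and 29.1% rose between these days in the test described below. The share of embryo markers that fell was near that of all genes. What part these shifts have in the values below was not tested.

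With age on OP50 some members rose and others fell. Genes were called at an adjusted p under 0.05 in edgeR's quasi-likelihood test over 19290 genes. Across the 5 OP50 days, 39 of 47 tested members (83%) differed, against 66.2% of all genes. Between day 1 and day 17, 29 members changed (61.7%, near the 53.9% of all genes). Of these, 24 did so at least 2-fold, and the share of all genes that did was not counted. Without the 4 sperm-rich libraries 26 members were called, and without the 4 numbered 3 of days 6 and 17 there were 25. Of the 47 tested members, 14 rose (against 29.1% of all genes) and 15 fell (against 24.8% of all genes). The share of members that rose was near that of all genes. The members' median log2 difference was -0.12, beside 0.10 over all genes, with single members from -4.78 to 5.46. The heat map of all tested members shows both directions.

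**Figure D1:**
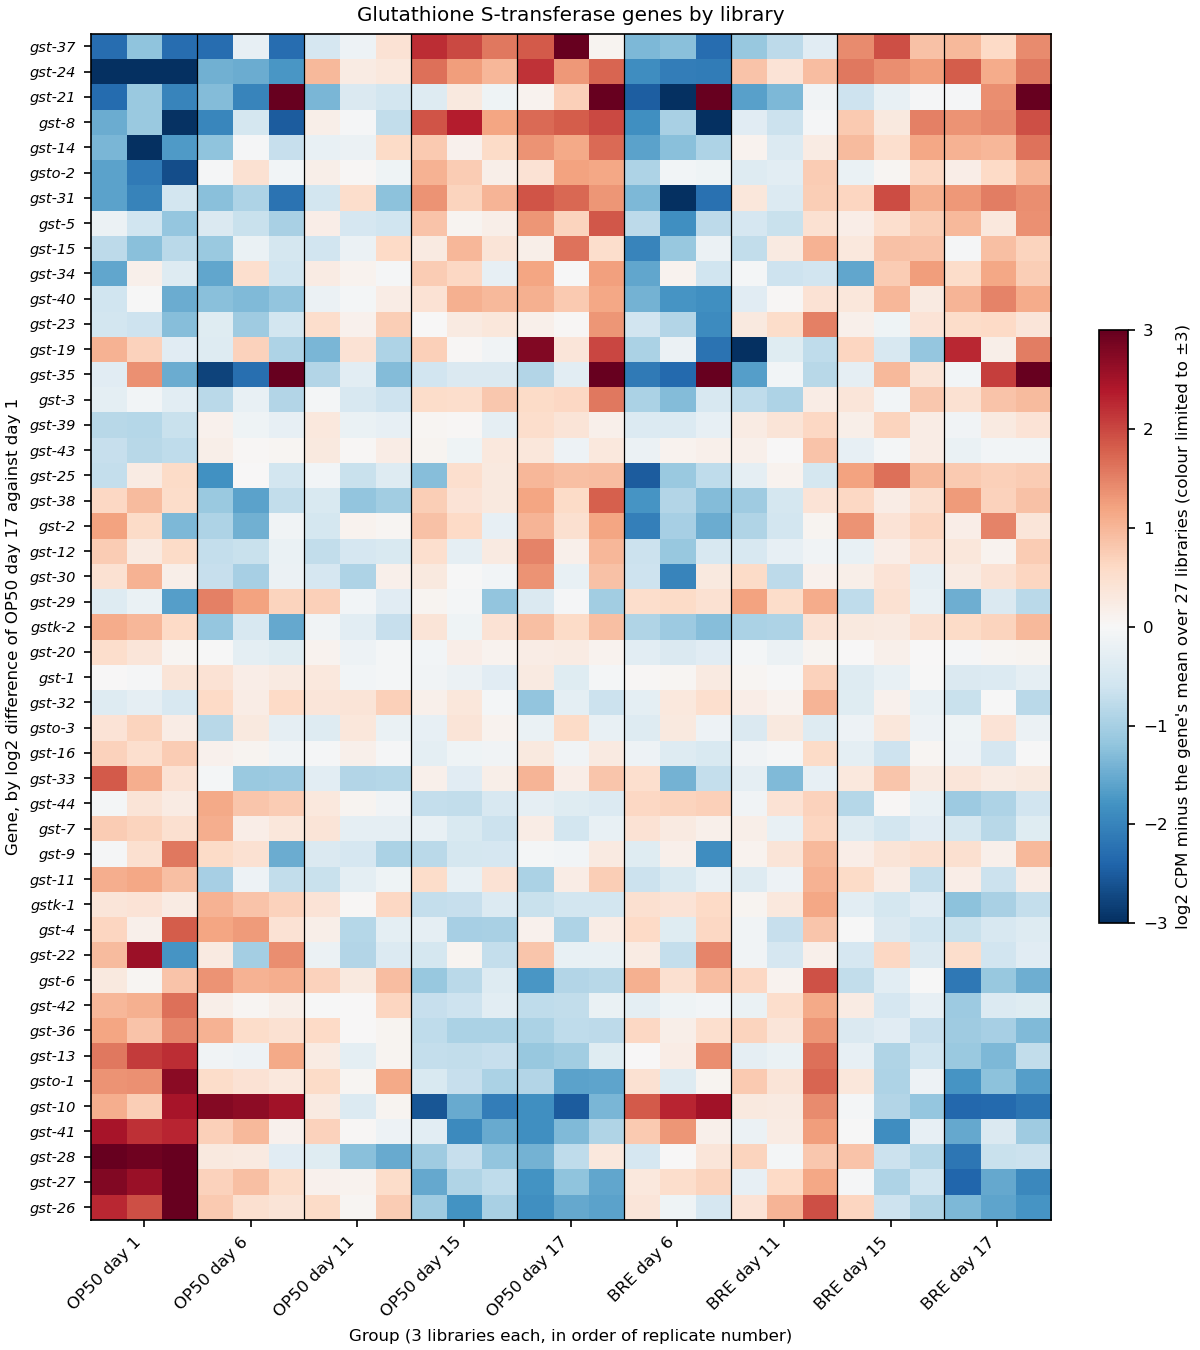
Level of each of the 47 tested glutathione S-transferase genes (vertical axis) in each of the 27 libraries (horizontal axis, 3 per group), as log2 CPM minus the gene's own mean, with colour limited to 3 either way. Genes are ordered by the log2 difference of OP50 day 17 against day 1, from gst-37 at 5.46 down to gst-26 at -4.78, and blue turns to red along the upper rows and red to blue along the lower rows in both diets.

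Among members with a mean over 1 CPM at OP50 day 17, gst-24 rose most. Its product is one of those reported to conjugate 4-hydroxynonenal, a product of lipid peroxidation. Its levels at OP50 day 1 were 0.699, 0.494 and 0.654 CPM, and at OP50 day 17 they were 34.9, 19 and 26 CPM. Every day 17 library lay far above every day 1 library. The log2 difference was 5.43 (SE 0.29, adjusted p = 2.97e-12), and the earlier days were above day 1 too, with log2 differences of 2.08 (SE 0.26) for day 6, 4.20 (SE 0.28) for day 11 and 4.98 (SE 0.28) for day 15.

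gst-5, also reported to conjugate 4-hydroxynonenal, changed late. It stood at 9.43, 7.10 and 4.81 CPM at OP50 day 1, at 7.98, 6.79 and 5.41 CPM at day 6, and at 26.7, 16.9 and 38.8 CPM at day 17. The day 1 and day 6 groups overlapped and the day 17 group lay above both. The log2 difference between day 17 and day 1 was 1.95 (SE 0.38, adjusted p = 0.000173). Its exons share 12 bp with nos-1 on the other strand, which also rose (log2 0.94).

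The 3 omega members did not share a direction. gsto-2 was at 0.394, 0.268 and 0.182 CPM at OP50 day 1 and at 1.65, 2.84 and 2.74 CPM at day 17, without overlap (log2 3.10, SE 0.38, adjusted p = 6.39e-07), and had risen by day 6 (log2 2.25). gsto-1 was at 1.89, 1.94 and 4.90 CPM at day 1 and at 0.395, 0.233 and 0.235 CPM at day 17, again without overlap, and fell (log2 -3.34, SE 0.44, adjusted p = 1.58e-06). Its exons share 52 bp with kle-2 on the other strand, which had 162.7 CPM at day 1 and 116 CPM at day 17. The difference for gsto-3 was -0.35 (SE 0.29, adjusted p = 0.331), with the 3 libraries of each group overlapping.

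gst-8, gst-14, gst-31 and gst-37 also rose, from low levels. gst-8 was between 0.036 and 0.167 CPM at OP50 day 1 and between 1.27 and 1.54 CPM at day 17 (log2 3.65, SE 0.59). gst-14 went from 0.108, 0.0167 and 0.0817 CPM to 0.781, 0.676 and 1.01 CPM (log2 3.58, SE 0.47). gst-31 went from 0.0717, 0.0502 and 0.163 CPM to 0.957, 0.846 and 0.642 CPM (log2 3.09, SE 0.56). In each of the 3 genes the groups did not overlap. For gst-37 the 3 day 1 libraries held 2 counts together and the day 17 libraries 122, a ratio of 49.2 in CPM terms with a 95% interval of 13.3 to 411 (Clopper-Pearson, counting error only). Its day 17 libraries were uneven, at 0.243, 0.585 and 0.0617 CPM.

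The deepest falls were of 3 neighbours at one end of the third run on chromosome II. gst-26 was at 3.40, 2.73 and 11.5 CPM at OP50 day 1 and at 0.185, 0.233 and 0.222 CPM at day 17 (log2 -4.78, SE 0.55, adjusted p = 2.05e-07). gst-27 was at 15.8, 13.9 and 32.4 CPM at day 1 and at 0.655, 0.987 and 0.772 CPM at day 17 (log2 -4.68, SE 0.39, adjusted p = 1.56e-09). gst-28 was at 4.88, 3.01 and 6.75 CPM at day 1 and at 0.134, 0.218 and 0.481 CPM at day 17 (log2 -4.11, SE 0.55, adjusted p = 1.72e-06). In all 3 the groups were far apart, and the third day 1 library was the highest. All 3 were already lower at day 6, by log2 differences of -2.50, -2.44 and -3.57. In the same run gst-39 (log2 1.14, SE 0.19) and gst-31 rose, while the 4 others, gst-29, gst-32, gst-34 and gst-35, did not pass the test at day 17. Neighbouring members may be near copies, and how reads that fit several genes were counted is not known.

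Each of the other runs also held members moving both ways. In the first, gst-8 rose while gst-6 (log2 -1.54) and gst-7 (log2 -0.79) fell. In the second, gst-24, gst-14 and gst-15 (log2 1.88) rose and gst-16 (log2 -0.49) fell. In the run on chromosome IV gst-3 rose (log2 1.27) and gst-4 fell (log2 -1.15). Of the 24 members outside any run 7 rose and 8 fell. Of all genes 29.1% rose and 24.8% fell, so both directions would often be met in a run of any genes. Nothing about the runs follows from these counts.

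gst-10, whose product conjugates 4-hydroxynonenal and whose overexpression has been reported to lengthen worm life, had its highest OP50 mean at day 6. Its levels were 3.49, 2.74 and 9.03 CPM at OP50 day 1, 11.0, 10.5 and 9.40 CPM at day 6, 1.97, 1.22 and 1.71 CPM at day 11, 0.262, 0.563 and 0.377 CPM at day 15, and 0.445, 0.275 and 0.623 CPM at day 17. Days 15 and 17 overlapped and lay below all earlier libraries. The fall from day 6 to day 17 was by 4.52 on the log2 scale (SE 0.46, adjusted p = 6.27e-08), the largest fall among the members in that comparison. The difference of day 6 from day 1 did not pass the test (log2 1.02, SE 0.40, adjusted p = 0.0531).

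Further falls came from gst-41 (log2 -3.71, SE 0.53), gst-13 (log2 -2.81, SE 0.47) and gst-36 (log2 -2.02, SE 0.23). gst-36 was at 15.2, 12.2 and 18.7 CPM at OP50 day 1 and at 3.5, 3.97 and 3.93 CPM at day 17, with no overlap and little spread at day 17. Its exons share 93 bp with scav-5 on the other strand, a gene at 0.873 CPM at day 1. gst-7, the second most abundant member, was at 109, 102 and 90.2 CPM at day 1 and at 75.5, 43.9 and 55.1 CPM at day 17 (log2 -0.79, SE 0.24, adjusted p = 0.00815). Without the libraries numbered 3 of days 6 and 17 the adjusted p was 0.0528.

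gst-4 was lower at day 17, a call that rested on single libraries. It had 4.45, 3.15 and 10.02 CPM at OP50 day 1 and 3.09, 1.5 and 3.34 CPM at day 17, so the groups overlapped. The log2 difference was -1.15 (SE 0.42, adjusted p = 0.0261), and -0.44 (adjusted p = 0.369) without the third day 1 library or -0.88 (adjusted p = 0.105) without the second day 17 library. Its exons share 65 bp on the same strand with dhs-12, a gene at 41.1 CPM at day 1.

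The zeta-like pair moved in opposite directions. gst-42, the maleylacetoacetate isomerase of tyrosine breakdown, was at 11.97, 12.5 and 18.9 CPM at OP50 day 1 and at 3.5, 3.56 and 5.18 CPM at day 17 (log2 -1.82, SE 0.29, adjusted p = 1.67e-05). gst-43, a related gene, was at 6.16, 5.66 and 5.90 CPM at day 1 and at 12.6, 9.05 and 12.5 CPM at day 17 (log2 0.95, SE 0.19, adjusted p = 0.000267), and had risen by day 6 (11.3, 10.3 and 10.4 CPM, log2 0.85). Neither gene's day 1 and day 17 groups overlapped.

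The kappa members followed different courses. gstk-1 was at 18.4, 19 and 16.9 CPM at OP50 day 1, at 29.4, 25.8 and 23.1 CPM at day 6 and at 9.05, 9.69 and 9.80 CPM at day 17, with the 3 groups apart. It fell from day 6 to day 17 (log2 -1.46, SE 0.21, adjusted p = 6.67e-06), while its difference between days 1 and 6 did not pass the test (adjusted p = 0.0528). gstk-2 was at 1.90, 1.76 and 1.33 CPM at day 1, at 0.384, 0.623 and 0.290 CPM at day 6 and at 1.65, 1.30 and 1.64 CPM at day 17, low at day 6 and overlapping between days 1 and 17. It was lower at day 6 than at day 1 (log2 -1.94, SE 0.33, adjusted p = 0.000127), and its difference at day 17 was -0.12 (SE 0.32, adjusted p = 0.765). Its exons share 44 bp with elo-3 on the other strand, a gene at 172.7 CPM at day 1. Chosen after their values were seen, gst-12, gst-20, gst-33 and gst-38 had the same order of calls. They were lower at day 6, higher at day 17 than at day 6, and not past the test between days 1 and 17. The share of all genes with this order was not counted, so nothing about the members follows from it.

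**Figure D2:**
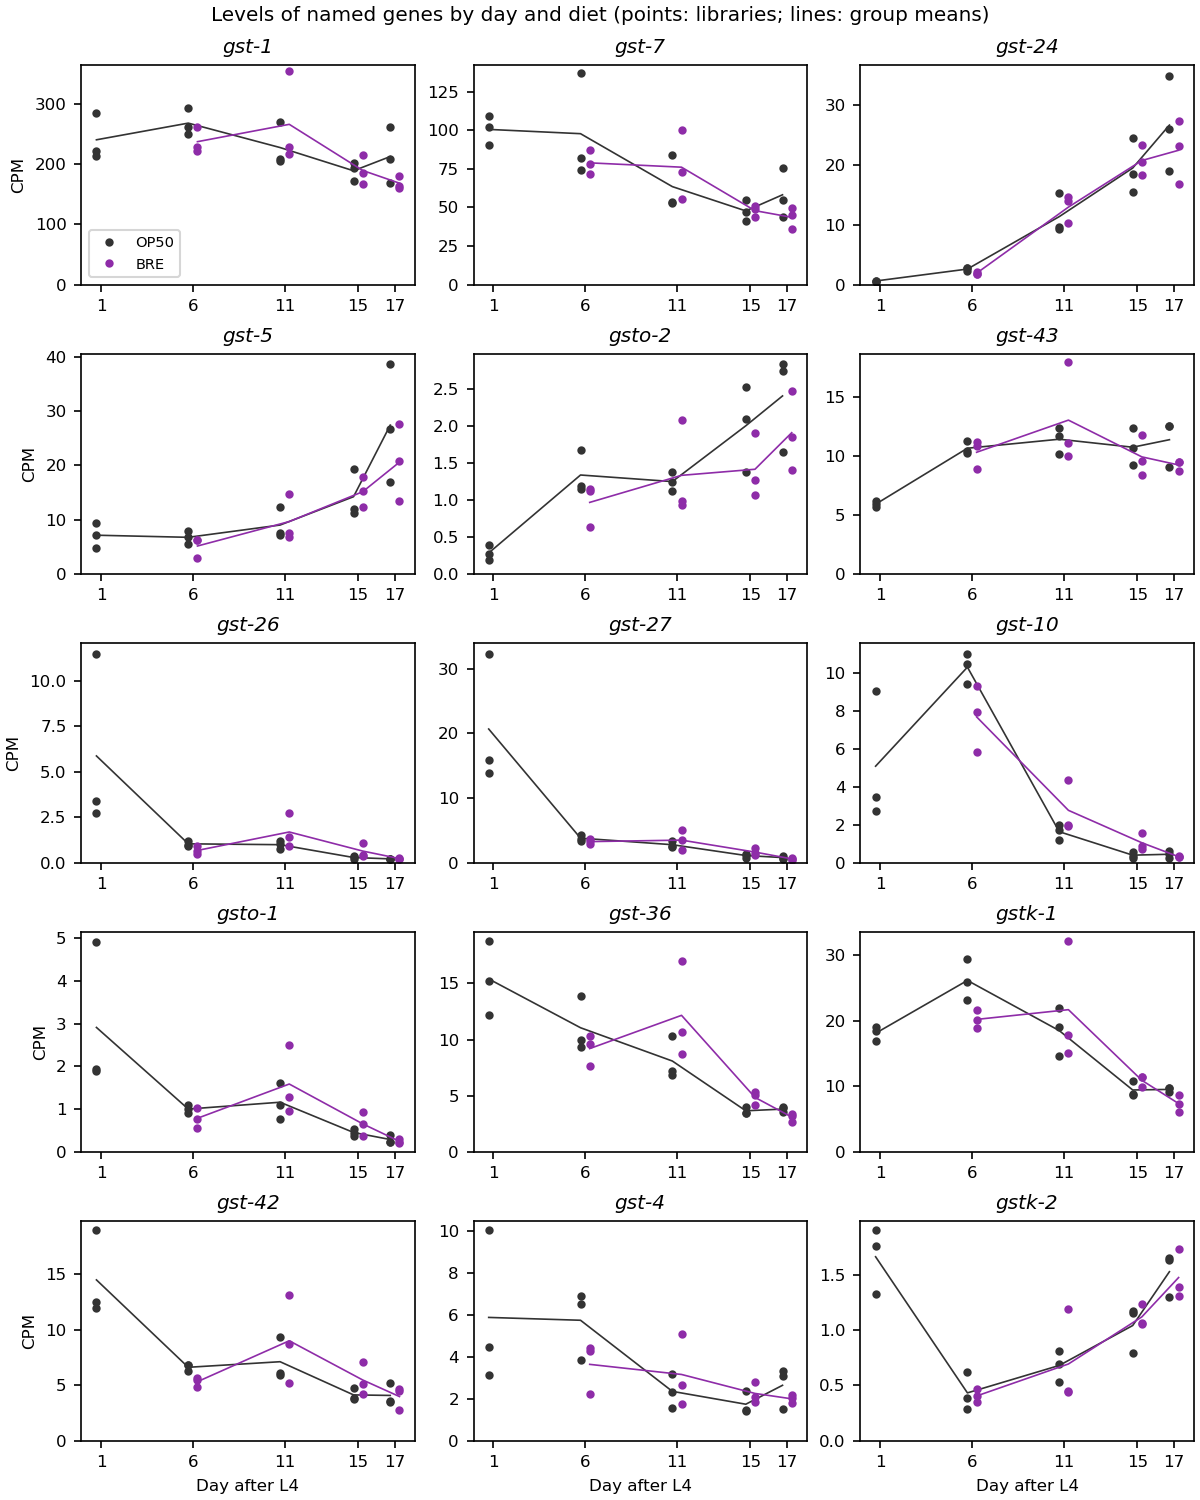
Level in CPM (vertical axes, each from 0) of 15 named members by day after L4 (horizontal axes), with 1 point per library, lines through group means, OP50 in black and BRE in purple. gst-24 climbs from under 1 CPM at day 1 to between 16.8 and 34.9 CPM at day 17, gst-27 and gst-10 drop below 1 CPM by day 17, gstk-2 dips at day 6, and the points of the 2 diets lie close together or mixed on most days.

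No change of gst-1 with age passed the test on OP50. It was at 221, 214 and 285 CPM at OP50 day 1 and at 262, 168 and 208 CPM at day 17, with overlapping groups. The log2 difference was -0.18 (SE 0.17, adjusted p = 0.404), with a 95% interval from -0.54 to 0.18. No comparison of an OP50 day with day 1 called it, and the test across the 5 days did not either (adjusted p = 0.116). The others of the 8 tested members that this test did not call were gst-2, gst-22, gst-25, gst-30, gst-34, gst-35 and gsto-3.

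At the earlier days, 23 members differed between day 6 and day 1 (48.9%, against 33.0% of all genes). Of the 47 tested, 9 were higher (against 14.0% of all genes) and 14 lower (against 19%). Between day 11 and day 1, 28 differed (59.6%, against 35.8% of all genes). Of the 47, 9 were higher (against 19.2%) and 19 lower (against 16.6%). Between day 15 and day 1, 31 differed (66%, against 47.2% of all genes). Of the 47, 13 were higher (against 26.1%) and 18 lower (against 21.1%). At days 11 and 15 the shares of members that were higher were near those of all genes. The members' median log2 differences were -0.41, -0.62 and -0.35, beside -0.10, 0.07 and 0.09 over all genes. These comparisons share the day 1 libraries. Of the 47 members, 18 had their highest OP50 mean at day 1 and 18 at day 17 (38.3% each, against 28.5% and 28.7% of all genes), 8 at day 6 (17.0%, against 22%), 2 at day 11 (4.26%, against 6.23%) and 1 at day 15 (2.13%, against 14.5%).

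The change from day 6 to day 17 could be set out in each diet from separate libraries. On OP50, 35 members changed (74.5%, against 56.0% of all genes). Of the 47 tested, 20 rose (against 32.5% of all genes) and 15 fell (against 23.5%). With BRE, 32 changed (68.1%, against 54.8% of all genes). Of the 47, 19 rose (against 32.7%) and 13 fell (against 22%). The members called in both diets numbered 30, which is 85.7% of the OP50 calls and 93.8% of the BRE calls (82.7% and 84.5% over all genes). Of these, 18 rose in both and 12 fell in both. Across the 47 genes, which are not independent replicates, the log2 differences of the diets had a Pearson r of 0.974, against 0.860 across all genes.

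Some named members, given as examples, had close courses in the 2 diets. gst-24 rose by log2 3.35 (SE 0.26) on OP50 and by 3.55 (SE 0.26) with BRE, where it went from 2.13, 1.81 and 1.81 CPM to 27.3, 16.8 and 23.1 CPM. gst-10 fell by 4.52 and 4.58 on the log2 scale, and with BRE went from 5.81, 7.93 and 9.30 CPM to 0.304, 0.311 and 0.343 CPM. gst-27 had log2 differences of -2.24 and -2.45, and gstk-1 of -1.46 in each diet. Members called on OP50 alone were gst-4, gst-30, gst-32, gst-33 and gst-42, and those called with BRE alone were gst-1 and gst-39. A call in a single diet is no test of a difference between diets.

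**Figure D3:**
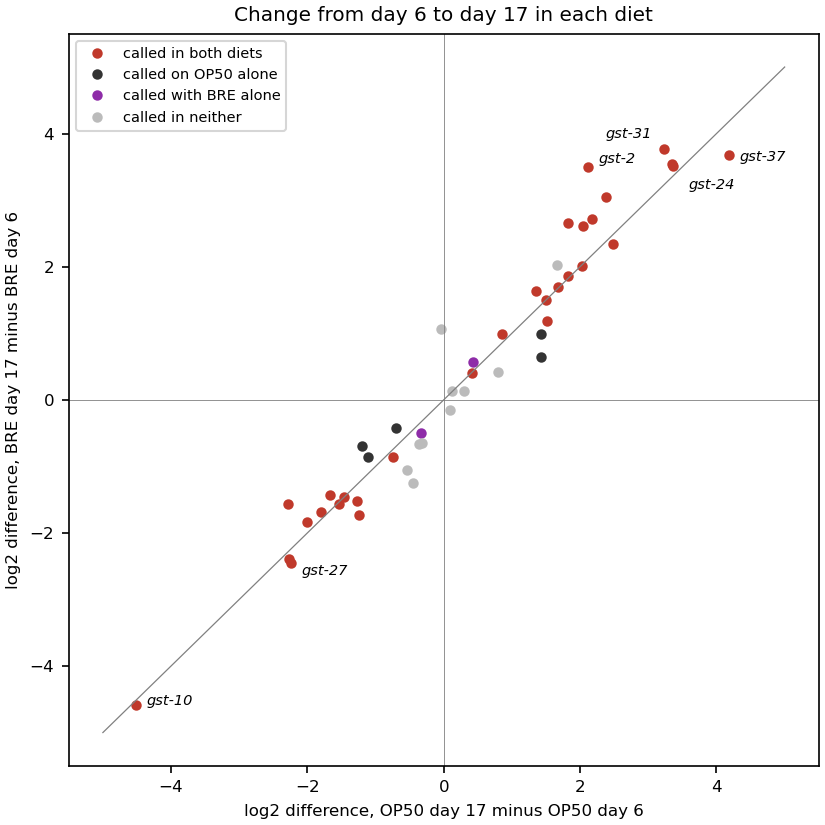
Log2 difference of day 17 against day 6 on OP50 (horizontal axis) and with BRE (vertical axis) for the 47 tested members, coloured by where they were called, with the line of equal change. The 30 members called in both diets lie near that line, with gst-10 at -4.52 and -4.58 at the lower end.

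The comparison of BRE with OP50 on the same day called no member. At an adjusted p under 0.05 the edgeR test called 0 of 47 members on day 6 (0.0156% of all genes) and 0 on day 11 (0.0104%). It called 0 on day 15 (0.0% of all genes) and 0 on day 17 (0.0% of all genes). It called 0 in the average over the 4 days (0.0467%). The test of whether the difference changed between days also called 0 (0.0% of all genes). DESeq2 called 0 members in each of these 6 comparisons. At an unadjusted p under 0.05 there were 0 members on day 6 (2.4% of all genes), 4 on day 11 (2.56%), 4 on day 15 (2.83%) and 1 on day 17 (8.13%). The average over days had 1 (3.65%), and the change between days 5 (3.0%).

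The single-day comparisons were not precise, with a median SE over the members between 0.40 and 0.41 on the log2 scale. The 95% interval of the difference lay inside 2-fold for 16 of 47 members on day 6, 19 on day 11, 20 on day 15 and 18 on day 17. In the average over 4 days the median SE was 0.20, and the interval lay inside 2-fold for 40 members. The averaged difference was -0.07 (SE 0.09) for gst-1, -0.10 (SE 0.12) for gst-24, -0.06 (SE 0.21) for gst-4 and 0.31 (SE 0.21) for gst-10.

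The members nevertheless leaned to one side on given days. The median log2 difference of BRE from OP50 was -0.31 on day 6 with 9 of 47 members positive, 0.26 on day 11 with 37 positive, 0.15 on day 15 with 31 positive and -0.25 on day 17 with 7 positive. Over all genes the medians were -0.04, 0.03, 0.01 and -0.01. The share of all genes with a positive difference was not counted. The 47 genes come from the same libraries and are not independent replicates, so the counts of positive members are no test. Averaged over days the members' median was -0.03 with 20 positive, beside 0.00116 over all genes. The day 11 value rested on a single library: without the third BRE library of day 11 the members' median was -0.06, with 19 of 48 tested positive. That library had a summed member level of 650.3 CPM, while the other BRE day 11 libraries had 414.2 and 392.3 CPM. It also had the lowest germ line and oocyte marker sum of that group, at 8421 CPM against 12970 and 13110 CPM. Whether these sums are linked was not tested. Leaving out other day 11 libraries gave medians from 0.15 to 0.32. The day 15 median was 0.04 (27 of 48 positive) without the second BRE library of that day and 0.07 (26 positive) without the third OP50 library. The day 17 median was -0.23 with 16 of 48 positive without the third OP50 library, and -0.20 with 11 of 47 positive without the first BRE library.

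**Figure D4:**
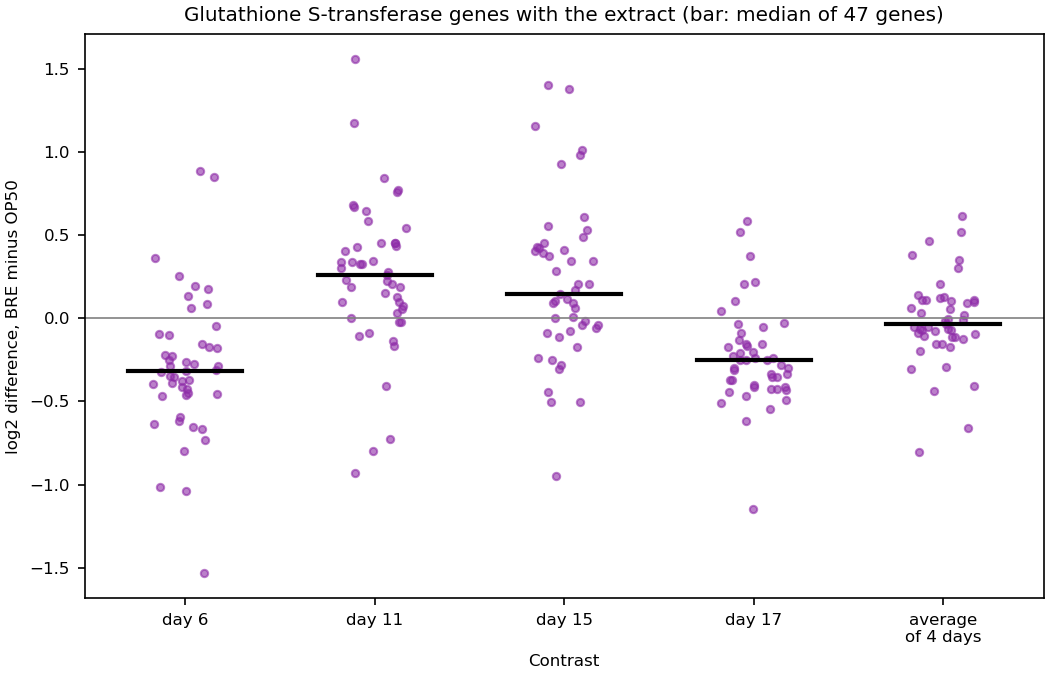
Log2 difference of BRE from OP50 (vertical axis) for each of the 47 tested members at days 6, 11, 15 and 17 and averaged over these days (horizontal axis), with 1 point per member and a bar at the median. The medians are -0.31, 0.26, 0.15, -0.25 and -0.03, and no point passed the test.

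At day 6 the BRE libraries of 11 members were all below the OP50 libraries (23.4%, against 4.52% of all genes) and those of none were all above (1.89%). The 11 were gst-10, gst-16, gst-24, gst-26, gst-29, gst-39, gst-40, gst-42, gst-44, gsto-2 and gstk-1. gst-24, with the smallest p of the day, was at 2.82, 2.72 and 2.29 CPM on OP50 and at 2.13, 1.81 and 1.81 CPM with BRE (log2 -0.45, SE 0.24, adjusted p = 1). gstk-1 was at 29.4, 25.8 and 23.1 CPM on OP50 and at 20.0, 18.9 and 21.6 CPM with BRE (log2 -0.37, SE 0.21, adjusted p = 1). Both gaps between the groups were small beside the spread within them. gst-16 (log2 -0.38, SE 0.20) and gst-14 (log2 -0.73, SE 0.43, overlapping groups) came next.

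At day 11 the groups were apart for 3 members, with gst-9 and gst-28 higher with BRE (4.26%, against 1.85% of all genes) and gst-34 lower (2.13%, against 2.45%). The level of gst-34 was very low, at 0.0276 to 0.0365 CPM on OP50 and 0.0135 to 0.0270 CPM with BRE. Its highest count in any library was 14. gst-28 was at 0.292, 0.151 and 0.124 CPM on OP50 and at 0.612, 0.365 and 0.678 CPM with BRE (log2 1.56, SE 0.52, adjusted p = 1). gst-9 was at 0.429, 0.408 and 0.297 CPM on OP50 and at 0.630, 0.770 and 1.16 CPM with BRE (log2 1.18, SE 0.48, adjusted p = 1). gst-36 (log2 0.59, SE 0.23) and gst-39 (log2 0.45, SE 0.19) had overlapping groups. gst-9 was also the member with the smallest p in the average over days, at log2 0.52 (SE 0.24, 95% interval 0.03 to 1.02, adjusted p = 0.967). Next in that average came gst-28 (0.46, SE 0.26), gsto-2 (-0.30, SE 0.17) and gst-37 (-0.80, SE 0.46).

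At day 15 the BRE libraries of 8 members were all above the OP50 libraries (17.0%, against 3.82% of all genes) and those of none were all below (1.87%). These 8 were gst-9, gst-10, gst-25, gst-26, gst-33, gst-35, gst-36 and gst-39. gst-10 had the smallest p, at 0.262, 0.563 and 0.377 CPM on OP50 and 1.56, 0.882 and 0.716 CPM with BRE (log2 1.38, SE 0.42, 95% interval 0.50 to 2.26, adjusted p = 0.646). Next came gst-26 (log2 1.16, SE 0.49), gst-25 (log2 1.41, SE 0.61) and gst-39 (log2 0.42, SE 0.19), each with an adjusted p of 1. The level of gst-25 was very low, at 0.0194 to 0.102 CPM on OP50 and 0.148 to 0.248 CPM with BRE.

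At day 17 the BRE libraries of 5 members, gst-20, gst-25, gst-36, gst-44 and gstk-1, were all below the OP50 libraries (10.6%, against 5.42% of all genes), and those of none were all above (7.64%). Here too gst-25 was very low, at 0.141 to 0.151 CPM on OP50 and 0.122 to 0.128 CPM with BRE. gst-44 was at 2.36, 2.21 and 2.12 CPM on OP50 and at 1.32, 1.49 and 1.89 CPM with BRE (log2 -0.51, SE 0.22, adjusted p = 0.601). gst-1 was at 262, 168 and 208 CPM on OP50 and at 160.3, 164 and 180.2 CPM with BRE, overlapping (log2 -0.34, SE 0.17, adjusted p = 0.628). The differences of gst-12 (log2 -0.54, SE 0.30) and gst-16 (log2 -0.37, SE 0.20) had adjusted p-values of 0.633 and 0.635.

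The test of a change between days ranked gst-10 first, with an adjusted p of 1 in edgeR. The log2 differences of gst-10 with BRE were -0.42, 0.76, 1.38 and -0.49 at days 6, 11, 15 and 17. Those of gst-39 were -0.28, 0.45, 0.42 and -0.15, those of gst-36 were -0.26, 0.59, 0.41 and -0.30, and those of gst-28 were -0.10, 1.56, 1.01 and -0.61. None passed the adjusted threshold.

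The levels of 3 members lined up with replicate numbers, on some days or on all. gst-21 was at 25.1 CPM (OP50 day 6), 16.4 CPM (OP50 day 17), 46.1 CPM (BRE day 6) and 16.2 CPM (BRE day 17) in the libraries numbered 3, and at most 2.39 CPM in the other 23 libraries. gst-35 in the same 4 libraries was at 25.5, 17.5, 47.7 and 19.8 CPM, and at most 8.74 CPM elsewhere. The 4 libraries stand clear of all others for both genes, which lie on different chromosomes, V and II. For gst-21 this made the fitted rise from day 1 to day 17 (log2 4.55, SE 1.83, adjusted p = 0.04) depend on single libraries. Without the third day 17 library the difference was 2.23 (adjusted p = 0.31), and without day 1 replicate 1, 2 or 3 the adjusted p was 0.104, 0.075 or 0.0979.

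gsto-3 was highest in the library numbered 2 in each of the 9 groups, as were 0.518% of all genes tested. The same search was made for numbers 1 and 3. It found 0.658% and 0.259% of all genes, with 0 members in each. At OP50 day 6 it stood at 6.60, 14.6 and 9.73 CPM in libraries 1, 2 and 3, and at BRE day 17 at 10.8, 15.7 and 10.5 CPM. The labels give no batch for these numbers, and their part in the values was not tested.

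**Figure D5:**
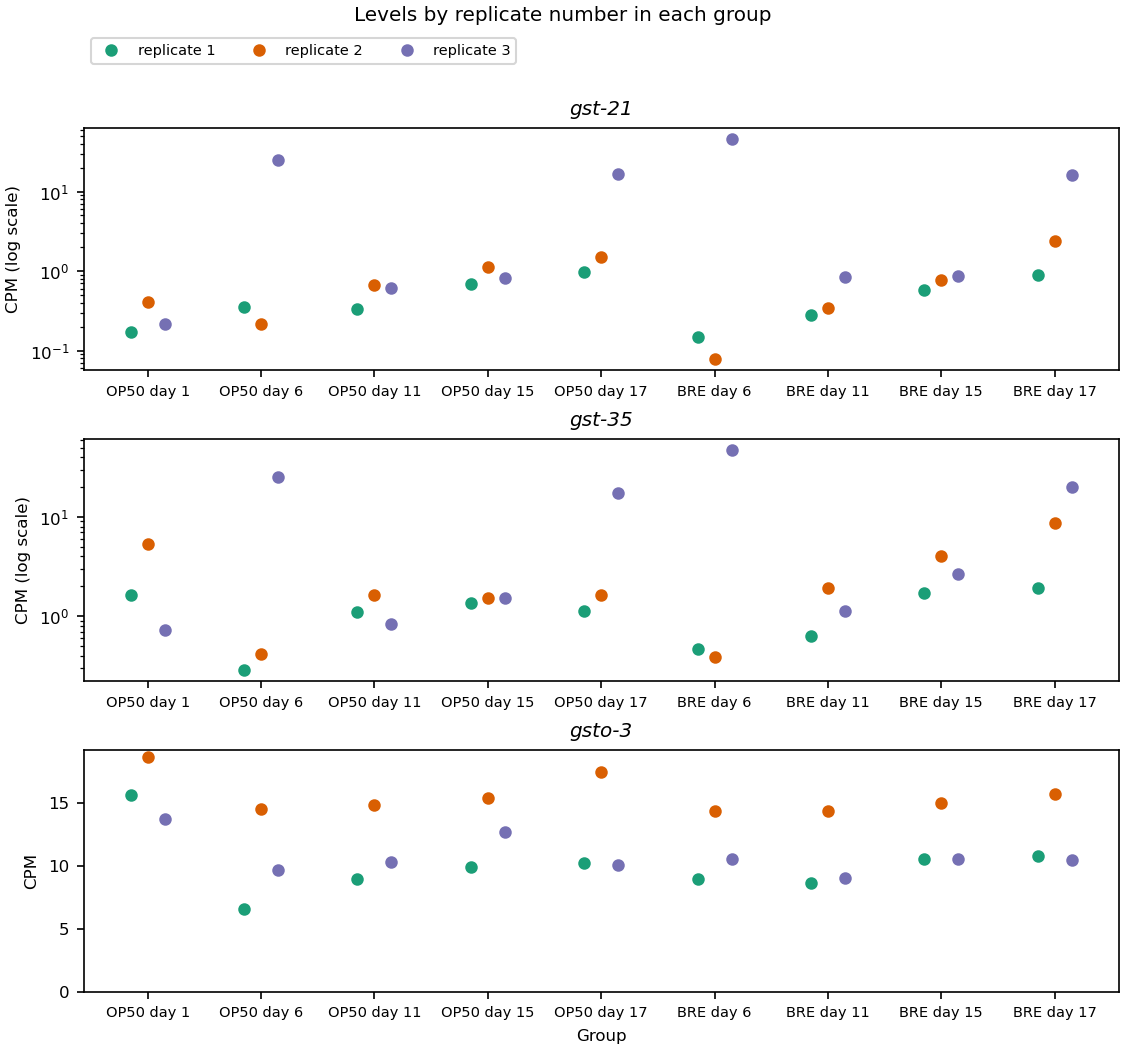
Level in CPM of gst-21 and gst-35 (log axes) and gsto-3 (axis from 0) in the 9 groups (horizontal axis), with 1 point per library coloured by replicate number. Replicate 3 of days 6 and 17 stands at 16.2 CPM or more for gst-21 and at 17.5 CPM or more for gst-35 in both diets, and replicate 2 is the highest for gsto-3 in every group.

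Other genes of glutathione use were described from lists of 4 roles. In the comparison of OP50 day 17 with day 1 the shares of all genes were, as above, 53.9% called, 29.1% higher and 24.8% lower, with a median log2 difference of 0.10. Of 7 genes listed for glutathione synthesis, its recycling and linked amino acid steps, 4 fell and 1 rose (median log2 -0.46). They included gsr-1, glutathione reductase, at 218.2 ± 12.7 CPM and then 111.4 ± 14.4 CPM (SD, n = 3; log2 -0.97, adjusted p = 1.55e-06), and gss-1, glutathione synthetase (log2 -0.46). Also lower were gln-3, a glutamine synthetase (log2 -3.22), and cth-2, a cystathionine gamma-lyase (log2 -0.90).

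Of 9 ABCC transporters and relatives, the class that exports conjugates, 6 fell and 1 rose (median log2 -0.72). mrp-2 was the one that rose, from 9.81 ± 0.0835 CPM to 57.8 ± 13.8 CPM (log2 2.56, adjusted p = 1.4e-09), while mrp-4 (log2 -1.55), mrp-3 (log2 -1.998) and hmt-1 (log2 -0.91) fell. Of 25 peroxidases, thioredoxins and related reductants, 6 rose and 7 fell (median log2 0.04). The thioredoxins trx-1 (log2 2.86) and trx-3 (log2 3.08) rose. trx-1 stayed low, at 0.0886 ± 0.0335 CPM and then 0.648 ± 0.197 CPM. trx-3 was uneven, at 5.81 ± 3.65 CPM and then 49.1 ± 28.5 CPM. The glutathione peroxidases gpx-7 (log2 -5.18) and gpx-2 (log2 -0.63) fell. Of 13 genes of the SKN-1 pathway, 3 rose and 5 fell (median log2 -0.20). They included elt-7, an intestinal GATA factor (log2 -1.44), bli-3, a dual oxidase (log2 -1.29), gsk-3, a kinase that inhibits SKN-1 (log2 -0.61), and sek-1, a kinase upstream of it that rose (log2 0.56). The 13 of 25 and 8 of 13 genes called in these last lists were shares near the 53.9% of all genes. In the average of BRE against OP50 the median log2 differences of these lists were -0.02, 0.13, -0.06 and 0.05, in the order given.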

How the data were processed

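RNA of 27 whole-worm samples was sequenced, 3 in each of 9 groups. The authors deposited raw counts per gene with no normalization. The tools named in the submitters' processing notes are HISAT2 2.0.5, featureCounts, SAMtools 1.7, Trimmomatic and FastQC. Genome build, strand setting and the counting of read pairs are not given in any source used. Of counts from 1 to 20, 54.5% to 68.9% per library were even, so a count may not be 1 fragment. Symbols and coordinates came from a gene name table and the WBcel235 annotation.

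edgeR 4.0.16 in R 4.3.3 was fitted to 9 group means (TMM, filterByExpr with a minimum count of 10, quasi-likelihood test), with Benjamini-Hochberg adjustment over 19290 genes per comparison. SE was obtained by dividing the size of the log2 difference by the root of F. CPM used TMM totals. Simulated data with 200 changed genes were used to test the fit. P-values measure the spread between these samples.

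Named members were the 6 highest per length, the 8 called members that rose most and the 8 that fell most from OP50 day 1 to day 17, the 4 with the smallest p in each BRE comparison, and gst-1, gst-4, gst-10, gst-42, gst-43 and the omega and kappa genes. Members and lists were chosen with earlier results of these data known.

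Pairing of replicate numbers was checked by correlating deviations from group means. It held at day 6 (0.221, 0.194 and 0.307), at day 11 (0.498, 0.412 and 0.218), between OP50 days 6 and 17 (0.255, 0.176 and 0.138) and between BRE days 6 and 17 (0.148, 0.151 and 0.256), where each was over 0.1, and not in the other 6 pairs of groups checked. The alternatives were RLE size factors, no filter, DESeq2 1.42.0, the compared groups alone, halved counts, each replicate left out, a replicate block and, chosen after seeing the data, 2 sets of 4 libraries left out.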

Additional observations from a re-analysis of the deposited data

How the results depend on the processing

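Every count of called members stayed within 1.5 times its reported value under the alternatives run, and the BRE comparisons called 0 members under each of them. With a replicate block 26, 30, 32 and 29 members were called at OP50 days 6, 11, 15 and 17 against day 1, 40 across the 5 days, 35 between OP50 days 6 and 17 and 32 between BRE days 6 and 17, and among named members the block ended no call but that of gst-21 (log2 3.19, adjusted p = 0.0617). Leaving out a replicate at a time, the counts ran from 19 to 23, 20 to 27, 26 to 29 and 25 to 27 against day 1, from 37 to 40 across the days, and from 28 to 33 and 30 to 33 between days 6 and 17. Of 1200 values of named members recomputed, 1189 kept direction and side of the threshold, 10 lost a call, 1 gained one and 0 reversed. The lost calls were all of OP50 day 17 against day 1. They were those of gst-7 without the 4 libraries numbered 3 of days 6 and 17 (log2 -0.72, adjusted p = 0.0528), of gst-21 (block, each day 1 library and the third day 17 library) and of gst-4, which besides single libraries also lost it without the 4 libraries richest in sperm transcripts (adjusted p = 0.0534) and in a fit of the compared groups alone (adjusted p = 0.0859). gsto-3 gained a call with the block (log2 -0.39, adjusted p = 0.0187). The causes were not tested. RLE factors moved the median of all genes by at most 0.0581 in these comparisons. With 3 libraries a group, the 95% interval of a single-day BRE difference reached past 2-fold for most members.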

Other observations

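Among the 19290 genes tested, 5 had their lowest level in the libraries numbered 3 of days 6 and 17 above their highest level in the other 23 libraries (0.0259%). They were gst-21, gst-35 and 3 genes of the UDP-glucuronosyltransferase family, whose enzymes join sugar to xenobiotics, and the set was found after the values were seen. ugt-21 was at 13.1, 15.5, 24.4 and 15.3 CPM in OP50 day 6, OP50 day 17, BRE day 6 and BRE day 17 replicate 3, and at most 4.45 CPM elsewhere. ugt-3 was at 1.45, 0.691, 3.76 and 0.787 CPM in the same libraries, and at most 0.407 CPM elsewhere. ugt-8 was at 27.3, 23.96, 41.7 and 29.5 CPM, and at most 23.3 CPM elsewhere. In all 5 genes BRE day 6 replicate 3 was the highest library.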
